A study of Mus musculus with 24 samples.

Results

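The siPINC1.0/1.6 knockdown, directed at 2 splice forms of the long noncoding RNA mPINC, was examined in undifferentiated HC11 cells, which the labels describe as not differentiated (-LH). HC11 is a mouse mammary epithelial line whose parent line, COMMA-D, came from the gland of a Balb/c mouse in mid-pregnancy. The comparison holds 4 of the 24 arrays of the study, chosen by their sample titles: 2 of siPINC1.0/1.6 and 2 of siNEG, a commercial negative control siRNA. Both groups were transfected with siRNA at 10 nM per well using Lipofectamine RNAiMAX, and RNA was isolated 5 days later. The growth medium of the study contains insulin and EGF, so "without hormones" below means without the differentiation mix, and the sources used here do not say whether -LH cells were primed for it. In siPINC1.0/1.6 cells an siRNA against mPINC1.0 and an siRNA against mPINC1.6 were combined, and the DCR2 splice forms, which lack the conserved region of the last mPINC1.6 exon, were not targeted. Arrays used only as a reference were 2 of siPINC (all splice forms targeted, -LH) and the corresponding siNEG and siPINC1.0/1.6 cells treated with hydrocortisone, insulin and prolactin (+LH, 3 arrays each). The study describes the -LH arrays as biological replicates, all groups come from 1 cell line, and bulk RNA cannot tell fewer cells of a type from less RNA per cell.

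mPINC is a noncoding transcript of alveolar cells of the mammary gland, whose level is known to rise in pregnancy and to fall when milk secretion begins. Long noncoding RNAs can act through chromatin complexes such as PRC2, which methylates histone H3 at lysine 27 and silences genes. HC11 cells grow as a mixed epithelial sheet with basal and luminal traits, and lactogenic hormones switch on milk genes in them through the glucocorticoid receptor and STAT5. Without hormones the cells are kept in the precursor state, so the question here is which genes differ after this siRNA pair before differentiation begins.

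Between 26732 and 28221 of 55681 probes were well above background on each of the 4 arrays, which lay on 1 slide, and no spot was saturated. All levels below are log2 signals, quantile normalized across the study, and a fold change is siPINC1.0/1.6 over siNEG. Of 14 epithelial markers 13 were well above background on both arrays of each group (Krt19 was not), whereas Esr1, Pgr and Foxa1, which define hormone-sensing luminal cells, were not above background on any of the 4 arrays. Of 12 leukocyte markers 7 were not above background in either group, Ptprc and Tyrobp among them, and the summed linear signal of the list was 3738 to 3777 in siNEG and 3059 to 3203 in siPINC1.0/1.6 cells. Of 9 endothelial markers 7 in siNEG and 6 in siPINC1.0/1.6 cells were not above background, Cdh5 and Tek among them, with summed signals of 1674 to 1968 and 1539 to 1633. Of 8 adipocyte markers, 5 (Adipoq, Lep and Plin1 among them) were not above background, and the sums were 150.6 to 182.5 and 242.3 to 245.7. Of 9 fibroblast markers, Lum, Dpt, Pi16 and Thy1 were not above background in either group, and the sums were 1013 to 1073 in siNEG and 507.3 to 546.7 in siPINC1.0/1.6 cells.

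mPINC itself was lower in siPINC1.0/1.6 cells. Its probe read 7.41 and 7.48 in siNEG cells and 6.27 and 6.39 in siPINC1.0/1.6 cells, so both knockdown arrays lay below both control arrays. The log2 fold change was -1.11 ± 0.11 (SE, n = 2 per group), with a 95% confidence interval from -1.40 to -0.82, a 2.16-fold difference at an adjusted p of 0.0366. The siPINC arrays read 6.39 and 6.16. In hormone-treated cells mPINC was already low (4.96, 4.94 and 4.72 in siNEG, with 1 of the 3 not well above background), and siPINC1.0/1.6 differed from it by 0.19 (adjusted p = 0.71). The files do not say which splice forms this probe reads.

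**Figure D1:**
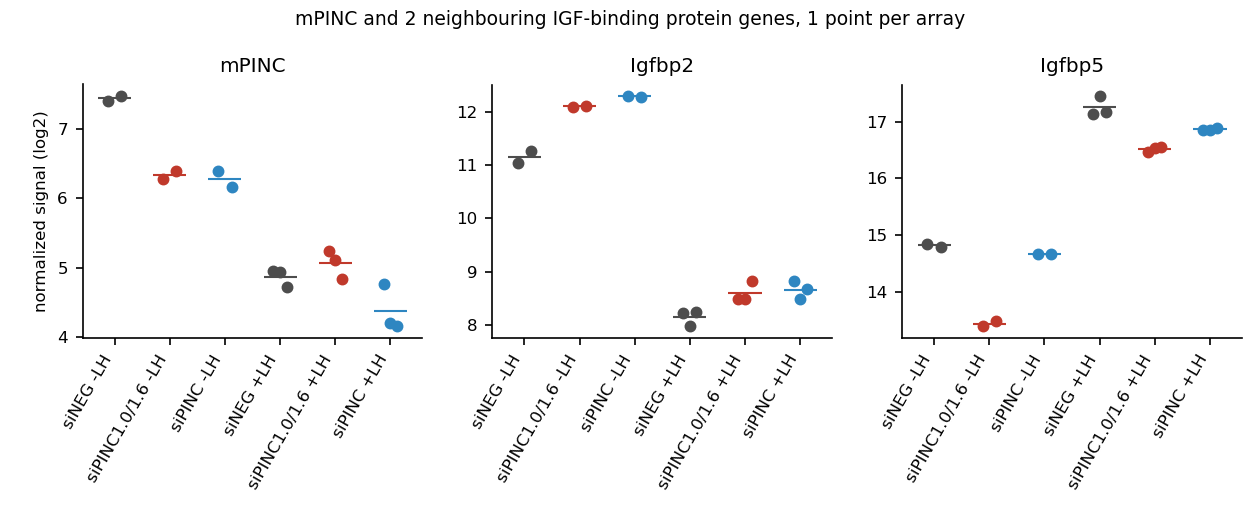
Normalized log2 signal (y axis) of mPINC, Igfbp2 and Igfbp5 in the 15 siRNA arrays, 1 point per array, with the group mean as a line; siNEG is dark grey, siPINC1.0/1.6 red and siPINC blue. In -LH cells the mPINC signal was between 7.41 and 7.48 in siNEG and between 6.16 and 6.39 in the knockdown arrays, and every +LH array was below these.

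Over all probes, 1650 of 55681 (2.96%) were called at an adjusted p under 0.05, of which 844 had a higher and 806 a lower signal after knockdown. With 1 probe for each of 20158 named genes, 1070 genes (5.31%) were called, 540 higher (2.68%) and 530 lower (2.63%). Among the 12254 genes that were well above background on all 4 arrays, 949 (7.74%) were called. The median absolute log2 fold change was 0.76 for called genes and 0.19 for all genes, and 178 genes were over 2-fold higher and 159 over 2-fold lower. The thresholds of the study, an unadjusted p under 0.01 with a change over 1.8-fold, were passed by 1330 probes. Where a called gene had more than 1 probe (315 genes), every other probe had the same sign for 283. Another probe was also called the same way for only 91 of the 315, and no other probe was called the opposite way.

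The adjusted calls rest on small numbers of arrays and were thinly supported. The lowest adjusted p was 0.0188. Fitted on the 4 arrays alone, without the siPINC arrays that help to estimate the spread, no probe passed an adjusted p of 0.05 by limma, although 1194 passed the thresholds of the study. Without siPINC1.0/1.6 replicate 2 or without siNEG replicate 2 no probe was called either, and without siPINC1.0/1.6 replicate 1 or siNEG replicate 1 the calls numbered 85 and 177. The words "higher" and "lower" below therefore mean an adjusted p under 0.05 in the fit of the 6 -LH arrays.

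The 10 largest rises are those of called genes above background on all 4 arrays. Serpina3f, a serine protease inhibitor, read 5.05 and 4.83 in siNEG and 8.88 and 8.67 in siPINC1.0/1.6 cells, 14.3-fold higher (log2 3.83 ± 0.14, adjusted p = 0.0188). Gdnf, a neurotrophic growth factor, read 5.03 and 4.43 against 8.04 and 7.90, and Hhip, which binds and dampens Hedgehog ligands, read 6.05 and 5.89 against 8.82 and 8.70. In each of these genes the groups were separated by several times the gap between replicates, which the choice by size among called genes favours. Akr1c18, which inactivates progesterone, was 7.03-fold higher (7.81 and 7.60 against 10.60 and 10.44), and the complement protein C3 was 5.82-fold higher (11.71 and 11.15 against 14.03 and 13.91). The other 5 of the 10 largest rises were Dynap (9.32-fold), Krtdap (7.76-fold), Cxcl5 (7.09-fold), Orm1 (6.26-fold) and Plekhs1 (6.22-fold).

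Some genes were not well above background on either siNEG array and were measured in siPINC1.0/1.6 cells, so that only a lower limit of the change can be given. The limit divides the mean of the bright group by a floor, which on each dim array was the weakest signal of any probe marked as above background, or the signal of the probe itself where that was greater. Prl2c5, a proliferin of the prolactin family, was at least 14.1-fold higher (3.06 and 3.86 against 8.27 and 7.50, adjusted p = 0.0447). Its close paralogs may share the probe. Csf3, the granulocyte colony-stimulating factor, was at least 10.0-fold higher, S100a9, a calcium-binding alarmin, at least 8.54-fold, Edn1, the vasoconstrictor endothelin-1, at least 6.61-fold, and the acute phase protein Saa3 at least 6.50-fold.

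The 10 largest falls were chosen in the same way. Krt15, a keratin of basal and progenitor-like epithelial cells, read 12.48 and 12.65 in siNEG and 9.28 and 9.32 in siPINC1.0/1.6 cells, a log2 fold change of -3.27 ± 0.08 (adjusted p = 0.0188). The same probe read 12.38 and 12.39 in siPINC cells, and siPINC1.0/1.6 was lower than siPINC by 3.08 on the log2 scale (log2 difference -3.08, adjusted p = 0.0472). Megf6, a protein with EGF-like repeats, read 10.04 and 10.26 against 6.96 and 6.91 (log2 fold change -3.21 ± 0.10). Il17b, an interleukin-17 family cytokine, read 11.85 and 11.90 against 9.37 and 9.61. All of these remained well above background after knockdown, so the falls are measured rather than limits. Pgm5, a phosphoglucomutase-like protein of adherens junctions, was 7.11-fold lower, and the cytochrome P450 Cyp2f2 7.47-fold lower. The remaining members of the 10 were Scrg1 (7.35-fold), Slc38a3 (6.09-fold), Sult5a1 (5.51-fold), Ifi27l2a (5.34-fold) and Islr (5.29-fold).

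Among genes that were no longer above background after knockdown, Chrm1, a muscarinic acetylcholine receptor, was at least 4.08-fold lower (6.43 and 6.12 in siNEG against 4.12 and 4.06). Slc27a6, a fatty acid transporter, was at least 3.58-fold lower, Tnfrsf13c, the BAFF receptor, at least 3.17-fold, the secreted Tafa5 at least 3.15-fold and the hair keratin Krt71 at least 2.85-fold.

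**Figure D2:**
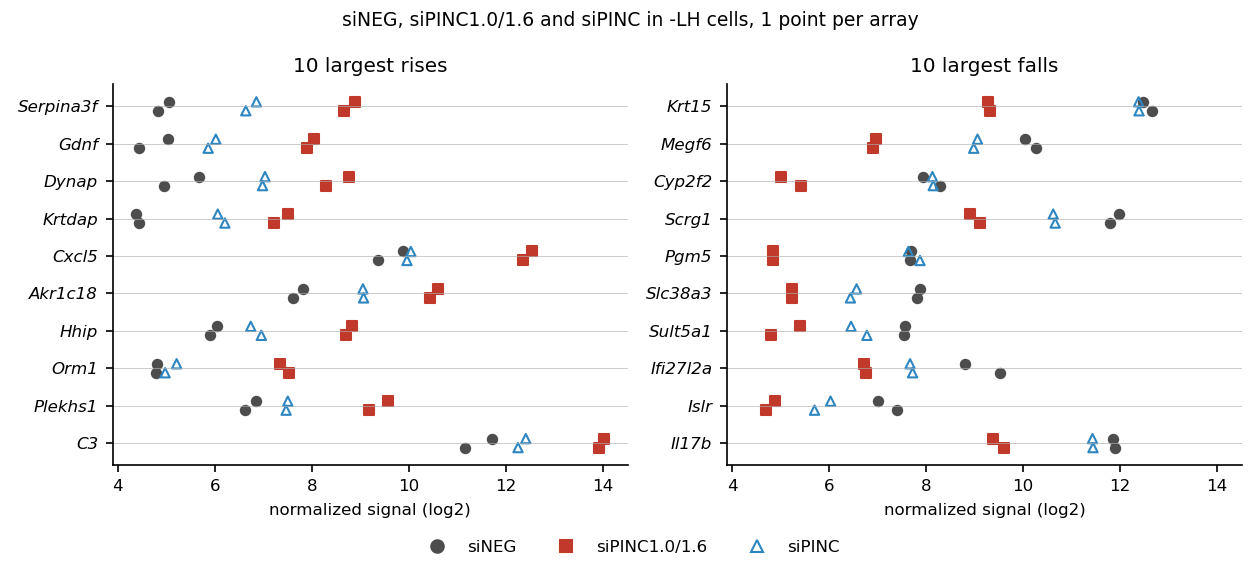
Normalized log2 signal (x axis) of the 10 genes with the largest rise (left) and the 10 with the largest fall (right) among called genes measured on all 4 arrays, 1 point per array: siNEG grey circles, siPINC1.0/1.6 red squares, siPINC open blue triangles. The siNEG and siPINC1.0/1.6 points do not overlap for any of the 20 genes, which was a condition of their choice. All 1070 called genes met this condition. Krt15, for example, read 12.48 and 12.65 against 9.28 and 9.32.

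Cytokines and chemokines included several of the larger rises. Of 45 measured, 11 were higher and 3 lower, against 2.68% and 2.63% of all genes, and the median log2 fold change of the list was 0.27 against 0.00 over all genes. The lists here and below overlap and were chosen with earlier results of these data known, which favours an excess of calls over all genes. Cxcl5, which attracts neutrophils, read 9.87 and 9.37 in siNEG and 12.54 and 12.36 in siPINC1.0/1.6 cells, and its relative Cxcl1 read 9.66 and 9.35 against 11.60 and 11.44. Csf3, which drives the formation of neutrophils, read 3.98 and 3.63 against 7.59 and 7.20. The siPINC arrays read 3.94 and 3.09 for Csf3 and 10.04 and 9.96 for Cxcl5.

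Il1a, the alarm cytokine interleukin-1 alpha, was near the floor of the signal in siNEG cells (1.89 and 1.83) and read 6.00 and 5.20 after siPINC1.0/1.6, at least 2.89-fold higher. Ccl2, which attracts monocytes, was at least 1.97-fold higher (2.45 and 2.38 against 5.22 and 4.87). Il6, which signals through STAT3, read 8.84 and 8.74 against 10.27 and 9.98 (log2 1.34, adjusted p = 0.0339), and Ccl9 read 7.11 and 7.03 against 9.13 and 9.15. Tnf was called higher but was not well above background on any of the 4 arrays. The other higher members were Cxcl16 (2.14-fold), Il24 (1.96-fold) and Vegfc (1.48-fold). The 3 lower members, named after their values were seen, were the epithelial chemokine Cxcl14 (log2 -2.63, above background on 1 of 2 knockdown arrays), Cxcl12, which retains CXCR4-bearing cells (-0.90), and Cx3cl1 (-0.48).

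Secreted proteins of innate defence and the acute phase rose in greater number than they fell: of 38 measured, 10 were higher and 1 lower, with a median of 0.65. The share called was 28.9%, against 5.31% of all genes (2.68% higher and 2.63% lower). S100a9 read 3.78 and 4.14 in siNEG and 7.36 and 7.04 in siPINC1.0/1.6 cells, and its partner S100a8, with which it forms calprotectin, read 6.35 and 5.71 against 8.16 and 8.30 (log2 2.20, adjusted p = 0.0399). Orm1, the acute phase protein orosomucoid, read 4.81 and 4.78 against 7.35 and 7.53. Saa3 read 3.87 and 2.83 against 6.88 and 6.66 at an adjusted p of 0.0497, the least certain of the group. Pglyrp1 and C1s1 were at least 1.83-fold and 1.95-fold higher, Cp (ceruloplasmin) and Wfdc2 were higher by 0.79 and 0.73, and Ptx3 by 0.53. Wfdc18, a small whey acidic protein family member, was the lower gene (15.96 and 15.80 against 14.68 and 14.89, log2 -1.09). Leukocyte markers were not higher beside these genes: 0 of 12 were called in either direction by limma and 0 had an unadjusted p under 0.05, with 7 not above background in both groups.

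Serpins and stefins, which inhibit serine and cysteine proteases, were changed at a few closely related genes. Of 24 serpins, 4 were higher (Serpina3f, Serpina3g, Serpina3i and Serpine2) and 1 lower (the collagen chaperone Serpinh1). The share called was 20.8% of serpins and 33.3% of stefins and related inhibitors, against 5.31% of all genes. Serpina3g read 1.88 and 1.90 in siNEG and 5.61 and 5.83 in siPINC1.0/1.6 cells, at least 3.13-fold higher, and Serpina3i, above background on 1 of 2 siNEG arrays, read 4.25 and 4.19 against 7.74 and 7.37. Serpina3 genes are near-identical copies, so their probes may share signal, as may those of the stefin A genes, and a second, dim Serpina3f probe, not above background on any array, did not move (log2 -0.07, adjusted p = 1). Of 12 stefins and related inhibitors 3 were higher, Stfa1 at least 5.73-fold, Stfa3 4.53-fold and Cstdc5 3.65-fold, and cystatin C (Cst3) was 1.57-fold lower.

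The promoters of the 3 higher Serpina3 genes are shown because these genes moved together. Each is a stretch of the 250 bases before the RefSeq transcription start (GRCm38.p6), written in the direction of the gene. Capitals mark matches to the STAT motif TTCNNNGAA, which reads the same on both strands, and, in Serpina3g and Serpina3i, the first capital run is a match to the NF-kB motif.
Serpina3f, chr12:104214403-104214457, + strand: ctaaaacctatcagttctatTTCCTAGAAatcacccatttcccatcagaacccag
Serpina3g, chr12:104236042-104236146, + strand: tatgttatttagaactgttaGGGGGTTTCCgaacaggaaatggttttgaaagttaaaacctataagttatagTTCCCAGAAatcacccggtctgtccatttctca
Serpina3i, chr12:104262948-104263054, + strand: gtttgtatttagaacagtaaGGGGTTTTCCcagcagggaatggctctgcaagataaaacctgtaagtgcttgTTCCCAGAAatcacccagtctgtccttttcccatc
All 3 stretches hold a STAT match followed by the bases atcaccc. The STAT motif was found in 7.8% and the NF-kB motif in 9.4% of 15989 genes with a promoter and a probe, searched on both strands, and in 3 and 2 of the 4 higher serpins. Of the 18 measured serpins with a promoter, 22.2% held the STAT and 16.7% the NF-kB motif, and the 3 genes shown are near-identical copies, so their matches are not independent counts. Over all called genes the STAT share was 8.39% of higher and 8.41% of lower genes, and the NF-kB share 13.2% of both. A match is a description of the letters and not evidence of binding.

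For comparison with a chemokine, the Cxcl1 promoter holds 2 overlapping NF-kB matches, shown as 1 capital run, and the Ccl9 promoter holds the AP-1 motif TGANTCA (the first run) and an NF-kB match.
Cxcl1, chr5:90891154-90891209, + strand: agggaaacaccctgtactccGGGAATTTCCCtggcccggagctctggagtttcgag
Ccl9, chr11:83578637-83578709, - strand: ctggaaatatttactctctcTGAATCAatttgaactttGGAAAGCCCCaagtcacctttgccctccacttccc
Among the cytokine genes with a promoter in the table, 3 of 6 higher and 0 of 3 lower genes held an NF-kB match, and 3 of 6 higher genes held an AP-1 match, which 7.17% of all promoters hold. Over the 32 measured cytokine genes with a promoter, called or not, 34.4% held an NF-kB and 21.9% an AP-1 match.

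Of 30 cornified envelope genes, which build the outer layer of stratified epithelia, 7 were higher and 0 lower, with a median of 0.35. The share called was 23.3%, against 5.31% of all genes. Krtdap read 4.37 and 4.43 in siNEG and 7.50 and 7.21 in siPINC1.0/1.6 cells, Sprr2h 6.02 and 6.13 against 8.14 and 8.01, and Sprr1b 8.63 and 8.56 against 10.43 and 10.21. The groups did not overlap for any of these, as for all 1070 called genes. Cnfn, Klk6 and Dmkn were higher by 1.33, 1.17 and 1.13, and Lce3c at least 1.45-fold.

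Of 21 keratins, 3 were higher (Krt6a, Krt6b and Krt7) and 3 lower (Krt15, Krt75 and Krt77), and the median was -0.04. Calls made up 28.6% of the list, against 5.31% of all genes. Krt6a, a keratin of activated and wound-edge epithelium, read 9.98 and 10.05 against 12.26 and 12.04, 4.39-fold higher, and Krt6b was 2.45-fold higher. The basal keratins Krt5 (16.51 and 16.54 against 16.33 and 16.29) and Krt14 (log2 -0.13, adjusted p = 0.507), and the luminal keratins Krt8 (-0.15, adjusted p = 0.607) and Krt18 (0.25, adjusted p = 0.214), did not pass the test. Krt77 was not above background in either group.

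**Figure D3:**
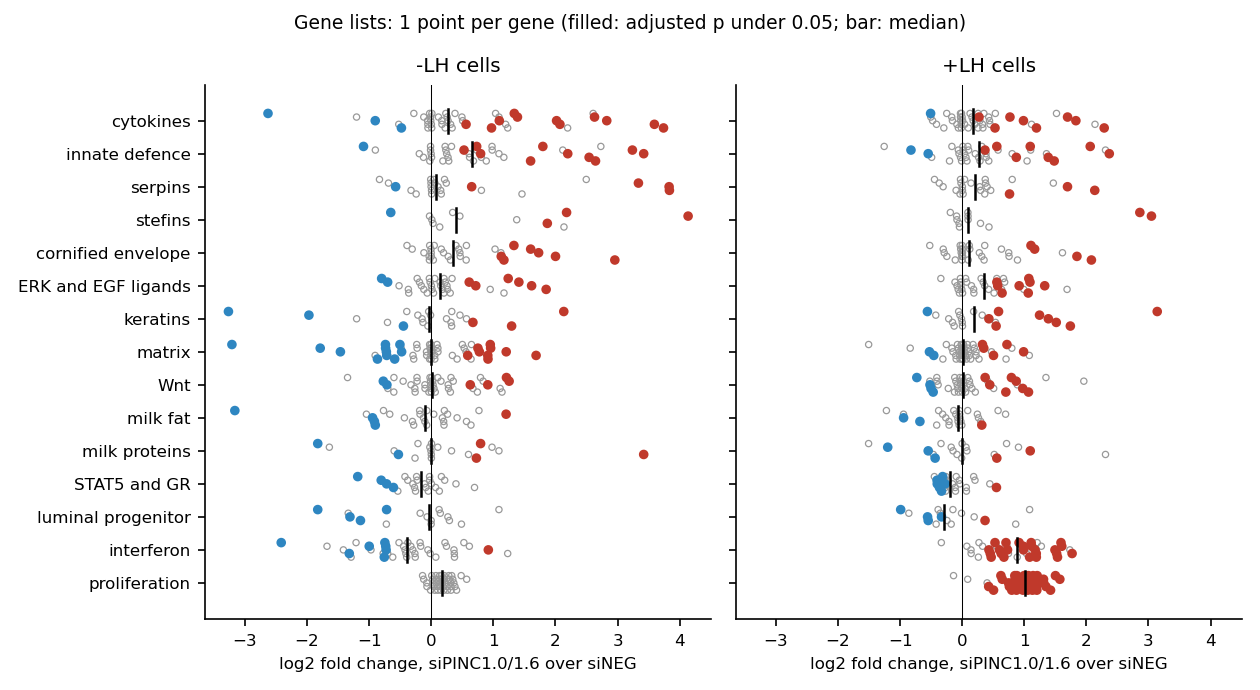
Log2 fold change of siPINC1.0/1.6 over siNEG (x axis) for the members of 15 gene lists in -LH cells (left) and +LH cells (right), 1 point per gene; filled points have an adjusted p under 0.05 (red higher, blue lower), open points do not, and the bar is the median of the list. In -LH cells 11 of 45 cytokines and 10 of 38 innate defence genes are red and 7 of 39 interferon genes are blue, while in +LH cells 24 interferon and 38 proliferation genes are red. Over all genes, 5.31% were called in -LH and 6.44% in +LH cells.

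EGF-family ligands and genes of the ERK response, the kinase cascade downstream of the EGF receptor, included 6 higher and 2 lower of 34, with a median of 0.15. Calls made up 23.5% of the list, against 5.31% of all genes. The ligands Hbegf (6.62 and 6.91 against 8.54 and 8.21), Epgn and Ereg (8.60 on both arrays against 9.93 and 9.75) were 3.06-fold, 2.66-fold and 2.36-fold higher. Fosl1, an AP-1 subunit, read 5.11 and 5.44 against 7.27 and 6.98, and Dusp4 and Etv4 were higher by 0.72 and 0.61. The members of the list did not move one way: Etv5 (-0.80) and Egr1 (-0.70), an immediate early factor, were lower.

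Of 27 genes of extracellular proteolysis, 3 were higher and 1 lower, with a median of 0.26. The share called was 14.8%, against 5.31% of all genes. Urokinase, Plau, which activates plasminogen, read 7.80 and 7.81 in siNEG and 8.94 and 8.92 in siPINC1.0/1.6 cells, and its receptor Plaur was 3.32-fold higher. Timp1, an inhibitor of matrix metalloproteinases, was 2.22-fold higher. Mmp15, a membrane-bound matrix metalloproteinase, was 3.03-fold lower (8.26 and 8.29 against 6.62 and 6.72).

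Matrix genes were called in number but without a common direction. Of 49 extracellular matrix and basement membrane genes, 9 were higher and 11 lower, and the median was 0.00. The share called was 40.8%, against 5.31% of all genes. Fibrillar collagens parted: Col1a1 read 8.76 and 8.71 against 6.85 and 7.04 (3.45-fold lower), Col3a1 8.13 and 8.57 against 6.78 and 6.99 (2.76-fold lower), whereas Col1a2 was among the higher genes. Sparc, a collagen-binding glycoprotein and one of the brightest genes, read 16.73 and 16.70 against 15.91 and 15.79. Col8a1 (3.22-fold), Tnc (tenascin C, log2 1.21) and Thbs1 (thrombospondin, 0.91) were higher.

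The collagens and Pdgfra also belong to the fibroblast markers, of which 3 of 9 were lower and 2 higher. The part of such cells in these values was not tested. Thy1, 1 of the higher markers, was not above background in either group. The shares called were 55.6% of these markers and 21.1% of integrins, against 5.31% of all genes. Of 19 integrins, 1 was higher (Itgb7, 3.00-fold) and 3 lower: Itga8 (3.13-fold), Itgb3 (11.07 and 11.11 against 9.95 on both arrays, 2.20-fold), which marks luminal progenitors, and Itga6 (log2 -0.68), a laminin receptor subunit.

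Of 19 milk protein genes, 3 were higher (Saa3, Cp and Clu) and 2 lower (Csn3 and Mfge8), 26.3% of the list against 5.31% of all genes. Among genes above background on all 4 arrays, 7.74% were called. Saa3 and Cp are also in the innate defence list, and the lists were chosen with earlier results of these data known. The shares called were 18.5% of milk fat genes and 16.7% of genes of STAT5 and glucocorticoid signalling. Kappa-casein, Csn3, read 6.96 and 6.35 in siNEG and 4.74 and 4.92 in siPINC1.0/1.6 cells, 3.55-fold lower. Beta-casein, Csn2 (1.97 on both siNEG and 1.95 on both knockdown arrays), and whey acidic protein, Wap, were not above background on any of the 4 arrays. Of 27 milk fat genes, 1 was higher (Xdh, xanthine dehydrogenase of the fat droplet coat, 2.31-fold) and 4 lower: Slc27a6, Cidea (1.92-fold), a lipid droplet fusion protein, Slc27a3 (1.89-fold) and Lpin1 (log2 -0.90).

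Of 24 genes of STAT5 and glucocorticoid signalling, 4 were lower and 0 higher, with a median of -0.17. Stat5a, which relays prolactin signals, read 9.17 and 9.14 against 8.34 and 8.35, and Elf5, an alveolar transcription factor, 8.88 and 8.74 against 8.04 and 8.14. Cebpa (2.27-fold) and Id2 (1.52-fold) were the other lower members. Of 16 luminal progenitor markers 4 were lower (Csn3, Trf, Itgb3 and Elf5) and 0 higher, and 6 had a log2 fold change above 0 (median -0.03). The summed linear signal of the list was 10890 to 13180 in siNEG and 16310 to 16930 in siPINC1.0/1.6 cells. Bright members weigh most in such a sum, so it does not give the direction of the list. Of 16 mature luminal markers 2 were higher, Wnt4 (2.38-fold) and Greb1 (1.61-fold). The median of this list was 0.03, and 6 members were not above background in either group. Of 21 basal markers 2 were higher (Nrg1 and Acta2) and 2 lower (Mylk and Sparc). The shares called were 25% of luminal progenitor, 12.5% of mature luminal and 19% of basal markers, against 5.31% of all genes.

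Interferon-stimulated genes held more falls than rises. Of 39 measured, 7 were lower and 1 higher, and the median was -0.40. Calls made up 20.5% of the list, against 5.31% of all genes. Ifit1, which binds foreign RNA, read 7.67 and 7.61 in siNEG and 6.75 and 6.52 in siPINC1.0/1.6 cells. Isg15, a ubiquitin-like modifier, read 12.73 and 12.89 against 12.09 and 12.03. Oas2, which activates RNase L, fell below the background mark (5.24 and 5.02 against 3.85 and 3.77, at least 1.85-fold lower). The differences were modest for Igtp (-0.76), Irf9 (-0.73) and Ifi27 (-0.73), and Ifi27l2a was 5.34-fold lower.

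Zbp1, a sensor of Z-form nucleic acid, was the higher member (7.30 and 7.41 against 8.24 and 8.31). Usp18 (7.87 and 8.04 against 7.13 and 6.36, adjusted p = 0.122) had lower values without passing the test. For comparison, Ifit1 in siPINC cells read 6.18 and 6.08. Antigen presentation genes had 1 higher (Tapbpl) and 3 lower (H2-T23, H2-Q10 and Nlrc5) of 22, 18.2% of the list against 5.31% of all genes. Their median was -0.02, and the Nlrc5 probe used was not above background in either group. A second Nlrc5 probe, above background on 1 siNEG and both siPINC1.0/1.6 arrays, had the opposite sign (log2 0.37, adjusted p = 0.623).

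Promoters of 3 of the lower interferon genes are shown with the interferon-stimulated response element (GAAA, any 2 bases, GAAA), searched on both strands, in capitals. In Igtp the first capital run is a STAT match, and in Isg15 overlapping matches form 1 run.
Ifit1, chr19:34640765-34640838, + strand: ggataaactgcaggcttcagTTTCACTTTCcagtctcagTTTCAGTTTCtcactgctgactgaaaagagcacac
Isg15, chr4:156200850-156200916, - strand: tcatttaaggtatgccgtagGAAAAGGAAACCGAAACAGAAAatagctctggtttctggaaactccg
Igtp, chr11:58199491-58199555, + strand: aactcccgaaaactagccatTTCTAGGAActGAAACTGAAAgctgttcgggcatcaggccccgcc
The element was found in 3.45% of all 15989 promoters, in 14 of 28 genes of the interferon list and in 3 of the 4 lower ones that had a promoter in the table. Over all called genes the share was 2.64% of higher and 3.61% of lower genes.

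Proliferation genes did not pass the adjusted test in -LH cells, although many had slightly higher values. Of 42 measured, 0 were called by limma, with log2 fold changes between -0.14 and 0.57 and a median of 0.17. At an unadjusted limma p under 0.05, 20 of the 42 passed, all with a higher signal after knockdown. Of all 55681 probes 10709 passed in either direction. The 2 shares are not matched, since the probes include dim and unnamed ones and 40 of the 42 genes were above background on all 4 arrays. Ccnb1, the mitotic cyclin B1, read 12.49 and 12.57 in siNEG and 12.65 and 12.61 in siPINC1.0/1.6 cells, and Mki67, the Ki-67 antigen, differed by -0.07 (adjusted p = 0.706). None of 11 genes of PRC2 and its partners was called (between -0.41 and 0.20, 2 at an unadjusted p under 0.05), with Ezh2 at 0.11, Suz12 at 0.17 and Rbbp7, which encodes RbAp46, at 0.12. None of 37 Hox genes was called (between -0.74 and 0.60, 7 at an unadjusted p under 0.05).

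Growth arrest and stress genes were called in both directions. Of 25 genes of the p53 and senescence list, 5 were higher and 4 lower, 36% of the list against 5.31% of all genes. The cyclin-dependent kinase inhibitor Cdkn1c read 8.72 and 8.96 against 6.39 and 6.81, 4.72-fold lower, and the p53 targets Sesn1 and Plk2 were lower by 1.84-fold and by a log2 fold change of -0.85. Gadd45b, Gadd45g and Gadd45a, stress sensors, were higher by 0.89, 0.74 and 0.67. The p53 target Cdkn1a read 10.79 and 11.13 against 10.86 on both arrays (adjusted p = 0.818). Of 26 unfolded protein response genes Ddit3 was higher (1.36-fold), and of 29 hypoxia and glycolysis genes Hk2 was higher and Hk1 and Car12 were lower, all under 1.5-fold. The shares called of these 2 lists were 3.8% and 10.3%.

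Genes beside mPINC on chromosome 1 and of the IGF system included a pair that moved apart. Of 17 chromosome 1 neighbours 3 were higher (Abca12, Igfbp2 and Atic) and 1 lower (Igfbp5). The share called was 23.5% of the neighbours and 14.3% of the IGF list, against 5.31% of all genes. Igfbp2 and Igfbp5 are in both lists. Igfbp2, which binds insulin-like growth factors, read 11.03 and 11.26 in siNEG and 12.09 and 12.10 in siPINC1.0/1.6 cells, 1.93-fold higher. Igfbp5, an IGF-binding protein abundant in the involuting gland, read 14.85 and 14.80 against 13.40 and 13.49, 2.61-fold lower. Abca12 was above background on 1 knockdown array only, and no other member of the 14 IGF genes was called.

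Other signalling lists held a few called genes each. The shares called were 14.3% of Wnt, 13% of Notch and 25% of endothelin genes, against 5.31% of all genes. Of 42 Wnt genes 4 were higher (Wnt4, Wnt7b, Wnt10a and Myc) and 2 lower, the Wnt inhibitors Sfrp1 (1.71-fold) and Rnf43 (log2 -0.71). Wnt7b read 8.68 and 8.80 against 9.99 and 9.91. Of 23 Notch genes the target Hey1 (12.73 and 12.84 against 11.31 and 11.37) and the receptor Notch3 were lower and Dlk2 was higher. Of 8 endothelin genes Edn1 was higher (3.88 and 3.89 against 6.94 and 6.65) and Mme, a peptidase that degrades endothelin, was 1.94-fold lower. Of 32 TGF-beta and BMP genes Ltbp1 was higher and Id2 lower, a share of 6.2%, near the 5.31% of all genes.

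Of 49 semaphorin and ephrin genes, 5 were higher and 2 lower, 14.3% of the list against 5.31% of all genes. Sema3c read 9.75 and 9.67 against 11.53 and 11.37, 3.34-fold higher. The Efnb2 probe used was 2.61-fold higher, but its other probe was not (log2 -0.30, adjusted p = 0.782). Of 29 mesenchymal genes Acta2 was higher and Pdgfra lower, a share of 6.9%, near that of all genes. Of 19 Ly6 genes 3 were higher (Slurp1, 3.34-fold, Lypd6b and Ly6c1), 15.8% of the list against 5.31% of all genes.

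Of 60 genes of xenobiotic and redox metabolism 6 were higher and 4 lower, 16.7% of the list against 5.31% of all genes. Vnn3, a pantetheinase, was not above background in siNEG cells (2.01 and 2.10 against 5.50 and 5.36) and at least 2.57-fold higher. Among the lower genes Sardh, a sarcosine dehydrogenase, read 7.68 and 7.67 against 5.66 and 5.55, and Nqo1 11.09 and 11.17 against 10.08 and 10.09. Of 33 ion and solute transport genes 4 were lower and 1 higher, 15.2% of the list. The proton pump subunit Atp6v1b1 (4.47-fold), the sodium pump subunit Atp1b1 (2.43-fold) and the chloride channel Ano1 (2.05-fold) were lower, while Atp2b2 was not above background in either group. Of 15 RNA interference genes, Ago4 was lower (2.97-fold), a share of 6.7%, near the 5.31% of all genes. In the remaining lists, Hsd17b7 of 22 cholesterol genes, Klk10 of 18 kallikreins and Prl2c5 of 7 proliferins were each the called member, all higher. Their shares of the lists were 4.5%, 5.6% and 14.3%. In the epithelial marker list Krt7 was higher and Elf5 lower, a share of 14.3%. None of 8 adipocyte and 9 endothelial markers was called by limma (2 and 0 at an unadjusted p under 0.05).

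The arrays labelled siPINC1.0/1.6 and siNEG in hormone-treated cells share no array with the -LH comparison. mPINC was not lower on the +LH arrays labelled siPINC1.0/1.6 (log2 fold change 0.19, adjusted p = 0.71), so the directions below follow the labels of these arrays and not a measured knockdown. Of the +LH arrays of these groups siNEG replicate 1 lay on the slide of the -LH arrays and the other 5 on a second slide. With the slide as a term and all 24 arrays fitted, 2113 probes had a different effect in the 2 conditions. The fit of the 15 siRNA arrays without that term gave 1778. The fits differ in arrays as well as in the term, so they do not isolate the slide. In +LH cells 6.44% of genes were called. The siRNA effect was different with hormones than without for 6.15% of genes, as tested by an interaction term over the 15 siRNA arrays. Of the 540 genes higher in -LH cells, 151 (28.0%) were also called higher in +LH cells, 6 were called lower, and 83.7% had the same sign. Of the 530 lower genes, 111 (20.9%) were called lower and 28 higher, and 74.7% had the same sign. Over all 20158 genes, 793 were called higher and 505 lower in +LH cells. A log2 fold change above 0 was held by 46.4% of all genes and one below 0 by 53.6%. Read from the other side, 19.0% of the 793 genes higher in +LH cells and 21.98% of the 505 lower were called the same way without hormones. The effect differed between the conditions for 177 of the higher and 345 of the lower genes.

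Some of the named genes, chosen after their values were seen, were above background on all arrays and called the same way in both conditions. Krt6a changed by 2.13 in -LH and 1.74 in +LH cells, Slurp1 by 1.74 and 1.62, Ereg by 1.24 and 1.09, Wnt10a by 0.91 and 1.07, and Ano1 by -1.04 and -1.02. For these 5 genes the difference between the conditions did not pass the test (adjusted p between 0.42 and 1), which does not show that the effects were equal. Cxcl5 was higher in both (2.83 and 1.70) with a smaller effect in +LH cells (difference -1.13, adjusted p = 0.029).

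Other genes changed in -LH cells and not detectably in +LH cells. Krt15 stood at 15.64, 15.69 and 15.47 in siNEG +LH and at 15.40, 15.45 and 15.49 in siPINC1.0/1.6 +LH cells, a difference of -0.16 against -3.27 in -LH cells (adjusted p of the difference 1.9e-06). Edn1 read 8.32, 8.31 and 8.37 against 8.30, 8.38 and 8.42 with hormones, where all 6 values lay above those of -LH cells (adjusted p of the difference 3.2e-06). Edn1 was not above background in siNEG -LH cells, so its change there is a limit. Csf3 and Il1a were not above background on any +LH array of siNEG or siPINC1.0/1.6 cells, and their effects differed between the conditions (adjusted p = 0.0012 and 0.0015).

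Interferon and proliferation genes were called in different numbers in the 2 conditions. Over all genes, 6.44% were called in +LH cells in either direction, and the effect differed for 6.15%. Of the 39 interferon genes 24 were higher and 0 lower in +LH cells (median 0.89 against -0.40 without hormones), and the effect differed for 22. Ifit1 read 8.91, 8.62 and 8.70 in siNEG +LH and 10.19, 9.71 and 9.92 in siPINC1.0/1.6 +LH cells, a log2 fold change of 1.19 against -0.999 in -LH cells. Oas2 was higher by 1.59 with hormones and at least 1.85-fold lower without. Of the 42 proliferation genes 38 were higher in +LH cells (median 1.00 against 0.17), and the effect differed for 33. Of 18 kallikreins 10 were lower in +LH cells and 0 in -LH cells, where 3 of the 18 were above background on both arrays of at least 1 group.

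**Figure D4:**
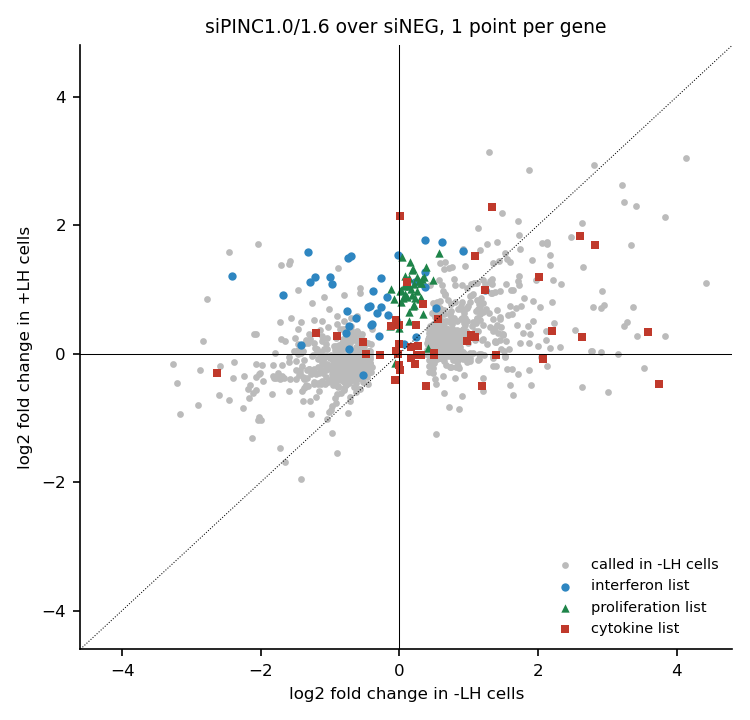
Log2 fold change of siPINC1.0/1.6 over siNEG in -LH cells (x axis) and in +LH cells (y axis), 1 point per gene: grey for the 1070 genes called in -LH cells, blue circles for 39 interferon, green triangles for 42 proliferation and red squares for 45 cytokine genes, with the dotted line marking equal change. Interferon genes lie mostly to the left of and above the origin (medians -0.40 and 0.89), proliferation genes above it (0.17 and 1.00), and several cytokines to the far right near 0 on the +LH axis.

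**Figure D5:**
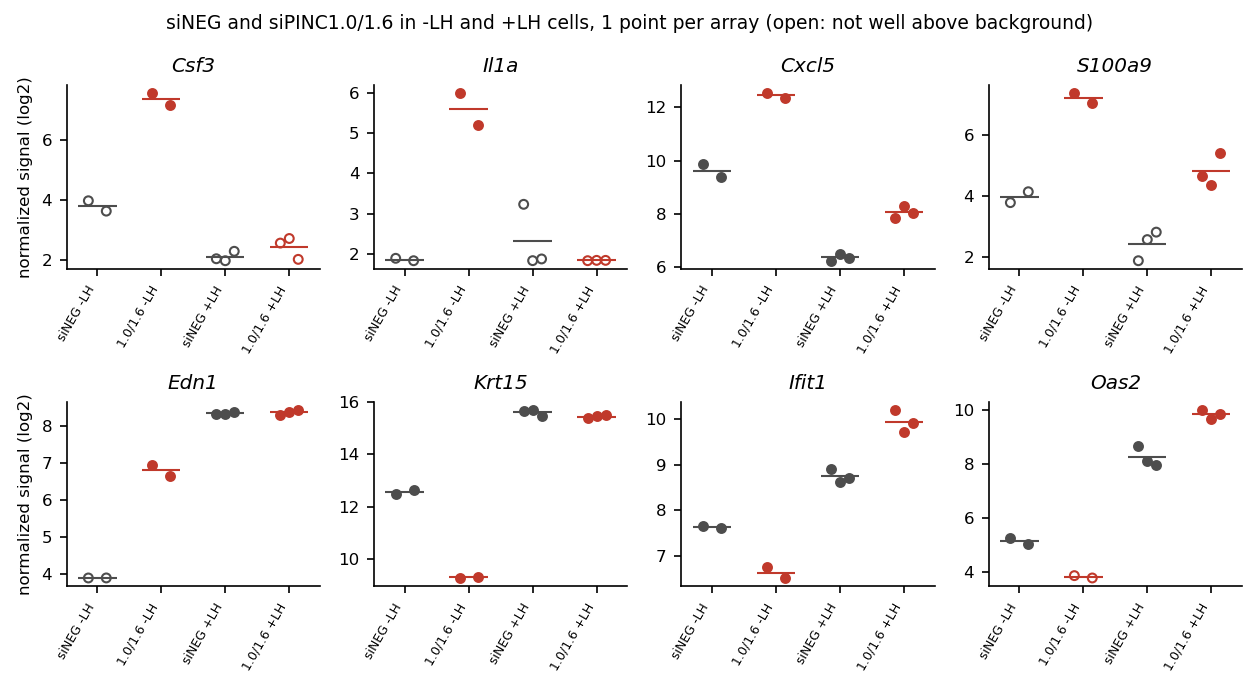
Normalized log2 signal (y axis, scaled for each gene) of 8 genes on each siNEG (grey) and siPINC1.0/1.6 (red) array of -LH and +LH cells, with the group mean as a line; open points are not well above background. Csf3, Il1a and Edn1 separate the groups in -LH cells only, Cxcl5 and S100a9 in both conditions, Krt15 is 9.28 and 9.32 only on the -LH knockdown arrays, and Ifit1 and Oas2 lie below siNEG without and above it with hormones.

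The siPINC arrays, which share the siNEG controls, are given as values only. The mPINC probe had a log2 fold change of -1.17 in siPINC and -1.11 in siPINC1.0/1.6 cells. The cause of other differences between the 2 siRNA pairs was not tested. For the -LH falls, siPINC read near siNEG for Krt15 (log2 fold change -0.18), Pgm5 (0.08), Cyp2f2 (0.03) and Igfbp5 (-0.15), and lower for Megf6 (-1.13) and Slc38a3 (-1.34). For the rises, it read near siNEG for Orm1 (0.30), while Csf3, Il1a and Vnn3 were not above background on any siNEG or siPINC array, and it read higher for Krtdap (1.73), Krt6a (1.40), Slurp1 (1.77) and Igfbp2 (1.14). No siPINC value in this paragraph passed an adjusted p of 0.05 against siNEG. Tested directly, siPINC1.0/1.6 differed from siPINC for Krt15, Pgm5 and Vnn3 (adjusted p = 0.0472 for each), and the test was not passed for Csf3 (0.0728), Il1a (0.0668) or Igfbp2 (0.496). For Vnn3, Csf3 and Il1a the siPINC values in this test are background readings.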

How the data were processed

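Total RNA (50 ng per sample) was labelled with Cy3 and hybridised to 1-colour Agilent arrays. The scanner output deposited by the authors holds intensity values from Agilent Feature Extraction 11.0.1.1. Its processed signal has the background of its own array removed, with no step between arrays. The authors also deposited normalized log2 values, used here as an alternative. Here the log2 processed signals of 59305 spots were quantile normalized over 24 arrays, outlier spots were dropped, and spots were averaged to 55681 probes, dim ones included. Gene names came from RefSeq accessions (26582 probes) or a supplementary table of the study (25), and 29074 probes were unnamed. The brightest probe stood for a gene. Groups were compared with limma 3.58.1 in R 4.3.3 on the 6 -LH arrays, with the siPINC arrays sharing the estimate of spread, and p-values were adjusted by Benjamini-Hochberg over all probes.

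Genes were named by rule: mPINC, the 10 largest rises and falls measured on all 4 arrays, 5 and 5 largest limits, and up to 4 called members of each of 44 lists. The rises, falls and limits were taken from called genes whose groups do not overlap. The members and lists were chosen with earlier results of these data known. Genes outside the rule are given with their values, chosen after these were seen. The number of arrays limits the precision. In simulated data of the -LH comparison, 47% of changes of 1 and 81% of changes of 2 on the log2 scale were called, with 8 of the unchanged probes. The changed probes, 100 of each size among 55681, were drawn from brighter ones, so the rates do not cover dim genes. The simulated noise was independent for each probe. Promoter sequences are RefSeq's (GRCm38.p6). Tables and figures were made in Python 3.11.15 (numpy 2.4.6, pandas 2.3.3, matplotlib 3.10.9).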

Additional observations from a re-analysis of the deposited data

Results flagged for a closer look

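The siRNA effect was different with and without hormones for 67 of the 124 named genes (limma, interaction term, adjusted p under 0.05), against 6.15% of all genes. The named genes were chosen for their change in -LH cells, which favours a smaller change elsewhere, and mPINC was not lower on the +LH arrays labelled siPINC1.0/1.6. Of these genes, the 21 below an adjusted p of 0.001 are given here. The values are the log2 fold change in +LH cells minus that in -LH cells. For Edn1, Ccl2, Oas2 and Chrm1 they are fitted differences of signals and not sizes of change, since 1 of the -LH groups was not above background, and Ccl2 was not above background on any of these +LH arrays either. Genes higher after knockdown in -LH cells had a smaller effect with hormones for Edn1 (-2.88), Ccl2 (-2.37), C3 (-2.17) and Sema3c (-1.57), whereas Krt6b had a larger one (1.85). Genes lower in -LH cells had an effect that was smaller or opposite with hormones. The differences were 3.11 for Krt15, 3.03 for Pgm5, 2.91 for Oas2, 2.75 for Megf6, 2.63 for Scrg1, 2.26 for Il17b and 2.19 for Ifit1. They were 2.10 for Cyp2f2, 1.79 for Col1a1, 1.63 for Chrm1, 1.51 for Sardh, 1.51 for Itgb3, 1.48 for Hey1, 1.23 for Plk2, 1.18 for Ago4 and 1.14 for Sfrp1. Of these, Oas2, Ifit1, Itgb3, Plk2 and Sfrp1 were called higher in +LH cells (log2 1.59, 1.19, 0.37, 0.38 and 0.37), the opposite of their direction in -LH cells.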

How the results depend on the processing

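The 1650 probes called in -LH cells became 154 with 75th percentile scaling, 3839 with normexp, 4933 among bright probes, 214 from the deposited normalized values, 1 by the methods' t-test, 4769 with a trended and robust prior, 0 in the 4-array fit and 5761 with the slide as a term (all arrays fitted). The 1330 probes past the thresholds of the study became 358 with normexp, whose offset shrinks fold changes, 754 with the series matrix values and 585 with the t-test. The mPINC change was -1.20, -0.88, -1.11 and -1.11 (adjusted p = 0.0644, 0.0811, 0.171 and 0.0939) with 75th percentile scaling, the series matrix values, the t-test and the 4-array fit. Of 124 named genes 50, 55, 0 and 0 were called in these settings. The 2140 probes called in +LH cells became 1033 with 75th percentile scaling, 3904 among bright probes, 1072 with the series matrix values, 733 with the t-test and 1023 in the 2-group fit, and the 1778 with a different effect became 1145 and 1024 with 75th percentile scaling and the series matrix values. The 356 probes called the same way in both conditions became 43 and 60 in these, 735 with normexp, 1302 among bright probes, 0 with the t-test and in the 2-group fit, 1147 with the prior and 1253 with the slide term.

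Leaving out each array gave 0 to 177 calls in -LH cells, 1027 to 1904 in +LH cells, 0 to 270 probes in common, 0 to 14 named genes and an mPINC change between -1.17 and -1.05. With the replicate number as a block, 0 probes were called in -LH, 850 in +LH, 1055 differed, 0 were in common, 0 named genes were called, and mPINC stood at -1.11 (adjusted p = 0.12). Same-numbered -LH arrays deviated together only weakly (correlations between 0.05 and 0.132 over 25075 probes). Depth limits dim genes: 59 called genes were above background on no array. The causes of these differences were not tested.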
